A study of Mus musculus with 6 samples.

Results

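The miR-200 family, which includes miR-141 and miR-429, was followed in small extracellular vesicles (sEVs) shed by cultured mouse pancreatic islets. Members were taken by name, as every entry for miR-200a, miR-200b, miR-200c, miR-141 or miR-429 with either arm suffix. The naming rule used no measured value, but the family was picked for description with earlier results of these data known. The 5 hairpins give 10 mature arms in RefSeq, and 7 of these are among the 718 entries of the deposited table. The listed arms are mmu-miR-200a-3p, mmu-miR-200b-3p, mmu-miR-200c-3p, mmu-miR-141-3p and mmu-miR-429-3p, and the 5p arms of miR-200a and miR-200b. Small RNA libraries came from islets of wild-type mice, which the labels give as C57/B6J, on a normal chow diet (NCD, nid-sEVs, 3 libraries) or a high-fat diet (HFD, aid-sEVs, 3 libraries). Islets were kept for 48 hours in medium without serum, sEVs were pelleted by ultracentrifugation, and 5 ng of RNA went into each library. The diet course began in mice aged 8 weeks, and mice on HFD for 9 weeks stood for beta cell compensation in the later experiments. The diet time and sex are not given separately for the sequenced islets, nor is the number of mice behind a library.

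Each miRNA hairpin is cut into 2 arms, of which one usually ends up in the silencing complex and is recovered at the higher level. Pairing of bases 2 to 8 of the mature strand, the seed, with a messenger RNA largely sets which genes a miRNA represses. The miR-200 family is known as a keeper of the epithelial state, since it represses the transcription factors Zeb1 and Zeb2, which in turn silence E-cadherin and the family's own genes. It is abundant in epithelia, including the ducts and endocrine cells of the pancreas. In beta cells the family is known for a role in cell death under stress.

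The 5 listed 3p arms are shown because their seeds split the family in a way that its genomic clusters do not. Sequences are from RefSeq (GRCm38.p6), written 5′ to 3′ with the seed in capitals.
miR-200b-3p: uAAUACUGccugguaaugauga
miR-200c-3p: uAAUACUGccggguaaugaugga
miR-429-3p: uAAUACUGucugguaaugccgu
miR-200a-3p: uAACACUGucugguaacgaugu
miR-141-3p: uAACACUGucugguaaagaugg
The first 3 share the seed AAUACUG, and the last 2 share AACACUG. Written as the first member's base, the position from the 5′ end and the second member's base, miR-200b-3p and miR-200c-3p differ by U11G and A22G over their first 22 bases. The difference between miR-141-3p and miR-200a-3p is A17C and G22U. With 2 differences in such short reads, reads could be divided wrongly within a seed group, and the mismatches allowed in counting are not given in the sources used here. Of the listed miRNA names, 424 matched a RefSeq mature sequence, and none outside the family shared either seed.

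Seed groups cross the genome. Mir429, Mir200a and Mir200b span 1846 bases of chromosome 4 (GRCm38, 156053905 to 156055750, minus strand). All 3 hairpins sit inside the protein-coding gene Ttll10 on the same strand and overlap none of its exons, and they also sit inside the noncoding gene Gm13648, an exon of which overlaps Mir429. Mir141 and Mir200c span 477 bases of chromosome 6 (124717914 to 124718390, minus strand), inside the noncoding gene Gm15884. Mir141 also overlaps the unclassified transcript Gm29008. The closest protein-coding gene, Phb2, ends 964 bases from Mir141. The AAUACUG seed therefore comes from both loci (Mir200b and Mir429 on chromosome 4, Mir200c on chromosome 6), and so does AACACUG (Mir200a and Mir141).

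Levels are in RPM, reads per 1000000 counted reads of the library, and whole reads could be recovered from them. Counted reads are those behind the RPM scale, and the listed entries held 99.75% to 99.96% of them. The number of reads sequenced is not given in the sources used here. The nid-sEV libraries held 50534 to 129152 counted reads and the aid-sEV libraries 122266 to 519315. A level of 3 reads was 23.2 to 59.4 RPM in nid-sEVs and 5.78 to 24.5 RPM in aid-sEVs. Unnamed entries held 33.5% of the listed reads of nid-sEV replicate 1 and 6.61% to 9.46% elsewhere. miR-375-3p, the defining miRNA of islet endocrine cells, ranked 1 to 3 in nid-sEVs and 1 in each aid-sEV library.

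The family as a whole was a small part of the vesicle miRNAs and lower in aid-sEVs. Its 7 listed arms added up to 6690, 10476 and 5857 RPM in nid-sEV replicates 1, 2 and 3, and to 3828, 1984 and 4228 RPM in the aid-sEV replicates. The groups did not overlap, and the mean was 2.29-fold lower in aid-sEVs, 7675 ± 2462 against 3347 ± 1197 RPM (SD, n = 3). The family thus took 0.586% to 1.05% of the counted reads of a nid-sEV library and 0.198% to 0.423% of those of an aid-sEV library. RPM is a share of the reads of a library and gives no absolute amount, so a rise of other miRNAs lowers it too. In bulk RNA, fewer vesicles from one cell type, less of a miRNA per vesicle and such a rise cannot be told apart. In each library miR-429-3p was the least abundant of the 3p arms and miR-200b-3p the next. miR-200a-3p came first in 5 of the 6 libraries, and miR-200c-3p did so in nid-sEV replicate 3.

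All 7 listed arms had a lower mean in aid-sEVs, and 2, miR-200c-3p and miR-200b-3p, were called lower by limma fitted over all entries. A call needed an adjusted p below 0.05 with more than 1 log2 unit between the groups. The 2 arms are 28.6% of those listed, while 1.81% of all entries were called lower, and 4.11% of those with a read in every library. At an unadjusted limma p under 0.05, 3 arms were lower, beside 5.85% of all entries and 14.6% of those with a read in every library, and 0 arms higher, beside 22%. With reads in place of RPM, edgeR's quasi-likelihood test had 3 of the 5 arms that passed its filter lower and 0 higher, with calls for 8.57% and 19.6% of entries. DESeq2 called 3 of the 7 arms lower and 0 higher, where it called 11.5% and 14.9% of entries. Neither edgeR's exact test (2.09% lower and 8.5% higher) nor its quasi-likelihood test without a filter (0.975% and 7.8%) called an arm. In each of these 2 tests 1 arm was lower at an unadjusted p under 0.05, beside 6.27% and 7.24% of entries. The median log2 fold change of the 7 arms was -1.52, beside 1.11 for all entries and -0.21 for the 219 entries with a read in every library. The median of all entries depended on depth. With every library thinned to the reads of the smallest, it was 0.19, and that of the 219 entries was -0.30.

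miR-200c-3p, an AAUACUG member and the more abundant arm of the chromosome 6 pair in 3 of the 6 libraries, had 1518, 1553 and 2216 RPM in the nid-sEV replicates and 558, 403 and 532 RPM in the aid-sEV replicates. Every nid-sEV library lay far above every aid-sEV library. The 95% Wilson intervals of the closest libraries ran from 1320 to 1745 RPM and from 498 to 626 RPM, counting error only. Its mean fell 3.54-fold, from 1762 ± 394 to 498 ± 83.0 RPM. On the log2(RPM + 1) scale this was -1.81 (SE 0.40, 95% interval -2.78 to -0.85, limma adjusted p = 0.030). Leaving out nid-sEV replicate 2, aid-sEV replicate 1 or aid-sEV replicate 2 raised the adjusted p to 0.078, 0.054 and 0.080.

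miR-200b-3p, the AAUACUG member from chromosome 4 that differs least from miR-200c-3p, moved in the same way. It had 906, 868 and 653 RPM in nid-sEVs and 283, 202 and 270 RPM in aid-sEVs. Again the groups were apart, and the counting intervals of the closest libraries, 465 to 917 and 241 to 333 RPM, did not meet. The mean fell 3.22-fold, from 809 ± 136 to 252 ± 43.8 RPM. Its log2 difference was -1.68 (SE 0.44, 95% interval -2.74 to -0.63, limma adjusted p = 0.046). This call was close to the threshold. It held only without nid-sEV replicate 3 (0.048) when single libraries were left out, with adjusted p-values of 0.063 and 0.13 without nid-sEV replicates 1 and 2 and of 0.081, 0.12 and 0.060 without aid-sEV replicates 1, 2 and 3.

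Both calls depended on the scaling of the libraries. Division by TMM factors moved the median of the entries detected in all libraries by 0.50 on the log2 scale, to 0.29. The log2 fold changes became -1.32 and -1.19, and the adjusted p-values 0.11 and 0.14. A TMM factor shifts all entries of a library alike, so the distance of an arm from that median was nearly fixed in advance. It was -1.61 for miR-200c-3p and -1.47 for miR-200b-3p before and after, which lends neither call support. Centring on the same entries left the call of miR-200c-3p (adjusted p = 0.0499 by limma) and ended that of miR-200b-3p (0.069).

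miR-429-3p, the third AAUACUG member, had the most negative fold change of the family but few reads. It had 155, 594 and 297 RPM in nid-sEVs, from 20, 39 and 15 reads, and 50.1, 48.3 and 139 RPM in aid-sEVs, from 26, 17 and 17 reads. The groups did not overlap, but nid-sEV replicate 1 and aid-sEV replicate 3 were close, with overlapping counting intervals. The log2 fold change was -2.10 (SE 0.77), and the adjusted p of 0.14 by limma missed the threshold. On the recovered reads it passed with edgeR's quasi-likelihood test (adjusted p = 0.047) and DESeq2 (0.027), and not with edgeR's exact test (0.24).

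**Figure D1:**
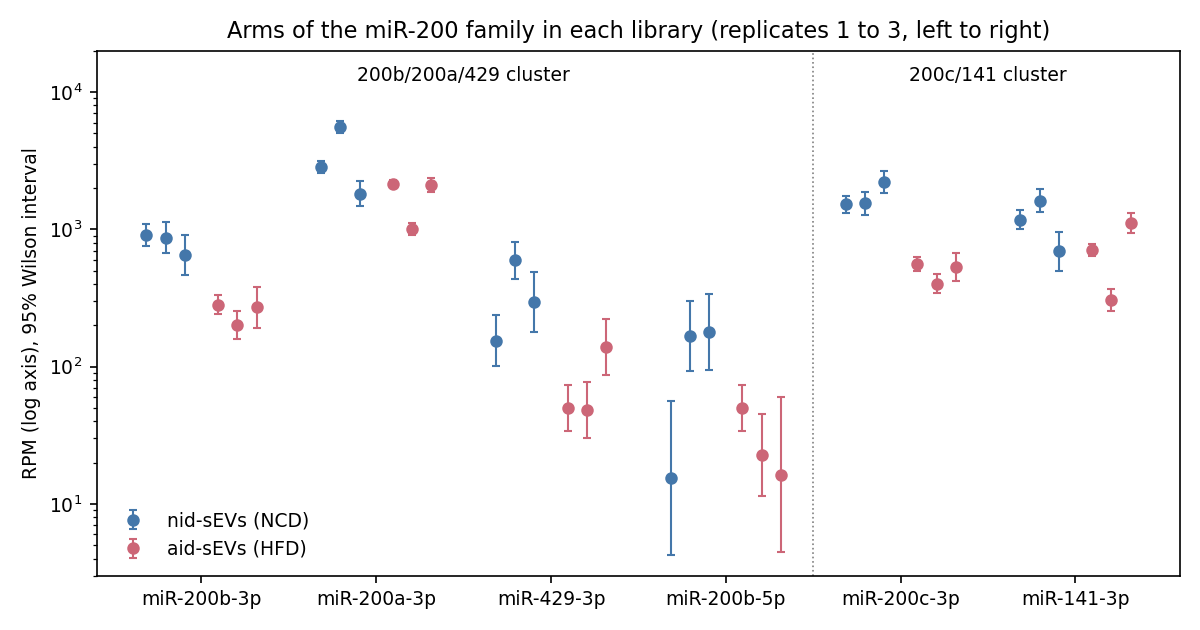
RPM on a log axis of the 6 family arms that had a read in every library, with 95% Wilson intervals for 3 nid-sEV and 3 aid-sEV libraries per arm and the genomic clusters separated by a dotted line. miR-200b-3p, miR-200c-3p and miR-429-3p were lower in each aid-sEV library than in each nid-sEV library, while the groups overlapped for miR-200a-3p, miR-141-3p and miR-200b-5p. miR-200a-5p, which was at 0 reads in 2 libraries, is not drawn.

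The AACACUG members differed less clearly between the groups, and their libraries overlapped. miR-200a-3p, which has the highest mean of the family in both groups, had 2865, 5604 and 1821 RPM in nid-sEVs and 2155, 1002 and 2110 RPM in aid-sEVs. The lowest nid-sEV library lay below 2 of the aid-sEV libraries. The log2 difference was -0.89 (SE 0.56, 95% interval -2.26 to 0.47, limma adjusted p = 0.32). miR-141-3p, its partner by seed, had 1177, 1614 and 693 RPM in nid-sEVs and 705, 307 and 1121 RPM in aid-sEVs. These groups overlapped as well, and the log2 difference was -0.81 (SE 0.63, 95% interval -2.35 to 0.72, limma adjusted p = 0.42). Both intervals reach past the fold changes of miR-200b-3p and miR-200c-3p, so a decrease of that size was not shown and not excluded. Both miRNAs were highest in nid-sEV replicate 2 and lowest in aid-sEV replicate 2, and without either library their log2 fold changes lay between -0.53 and -0.30.

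The 5p arms, the minor products of these hairpins, gave little. miR-200b-5p had 2, 11 and 9 reads in nid-sEVs and 26, 8 and 2 in aid-sEVs, which are 15.5, 168 and 178 RPM and 50.1, 22.7 and 16.4 RPM. It lay high in 2 nid-sEV libraries and low in nid-sEV replicate 1, and its adjusted p was 0.41 by limma. miR-200a-5p had 7, 5 and 0 reads in nid-sEVs and 14, 0 and 5 in aid-sEVs, where the libraries at 0 allow a level of up to 59.4 RPM (nid-sEVs) and 8.52 RPM (aid-sEVs). No difference in this arm was detectable at this depth. The 3p arm of miR-200b exceeded its 5p arm in each library, by 3.67-fold to 58.5-fold, and the range within nid-sEVs covered that of aid-sEVs.

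**Figure D2:**
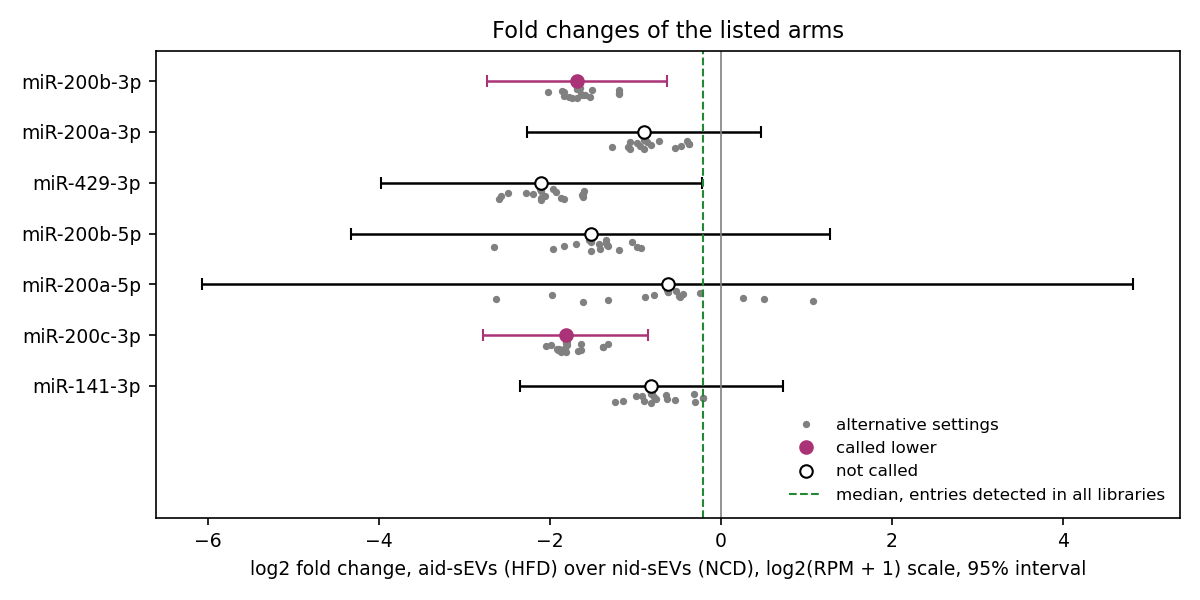
Log2 fold changes of aid-sEVs over nid-sEVs on the log2(RPM + 1) scale for the 7 listed arms, with 95% intervals from limma, filled points for the 2 arms called lower and grey dots for the values under the alternative settings. Grey dots stay below 0 for every arm but miR-200a-5p, and the dashed line marks the median of -0.21 for the entries detected in all libraries.

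Sums by genomic cluster were lower in aid-sEVs for both loci. The chromosome 6 pair, miR-200c and miR-141, added up to 2694, 3167 and 2909 RPM in nid-sEVs and 1263, 710 and 1652 RPM in aid-sEVs, a mean 2.42-fold lower. The 5 listed arms of the chromosome 4 cluster added up to 3995, 7309 and 2949 RPM in nid-sEVs and 2565, 1275 and 2576 RPM in aid-sEVs, a mean 2.22-fold lower. In RPM neither pair of groups overlapped, although the lowest nid-sEV value of the chromosome 4 cluster, 2949 RPM, was near the highest aid-sEV value. The TMM factors were 0.995 for nid-sEV replicate 3 and 0.783 for aid-sEV replicate 1. Division by them reverses the order of 2949 and 2565 RPM, so this separation depended on the scaling. The ratio of the chromosome 6 pair to the chromosome 4 cluster within a library is free of scaling. It was 0.674, 0.433 and 0.987 in nid-sEVs and 0.492, 0.557 and 0.641 in aid-sEVs, so all aid-sEV libraries fell within the nid-sEV range and the clusters did not separate the groups. In none of the libraries did the chromosome 6 pair exceed the chromosome 4 cluster with its 5p arms included. With 3p arms alone the chromosome 4 cluster had 2770 RPM in nid-sEV replicate 3, below the 2909 RPM of the chromosome 6 pair.

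Sums by seed gave a different picture from sums by locus, and they are not affected by reads exchanged between the near-identical members of a seed group. The AAUACUG members miR-200b-3p, miR-200c-3p and miR-429-3p together had 2578, 3015 and 3166 RPM in nid-sEVs and 892, 653 and 941 RPM in aid-sEVs. The groups were far apart, and the mean was 3.52-fold lower, 2920 ± 305 against 828 ± 154 RPM. The AACACUG members miR-200a-3p and miR-141-3p together had 4042, 7218 and 2513 RPM in nid-sEVs and 2860, 1309 and 3231 RPM in aid-sEVs. Here the groups overlapped, with 4591 ± 2400 and 2466 ± 1020 RPM. The SD between nid-sEV libraries was 10.5% of the mean for the AAUACUG sum and 52.3% for the AACACUG sum. The sums are given as a description, with no test.

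**Figure D3:**
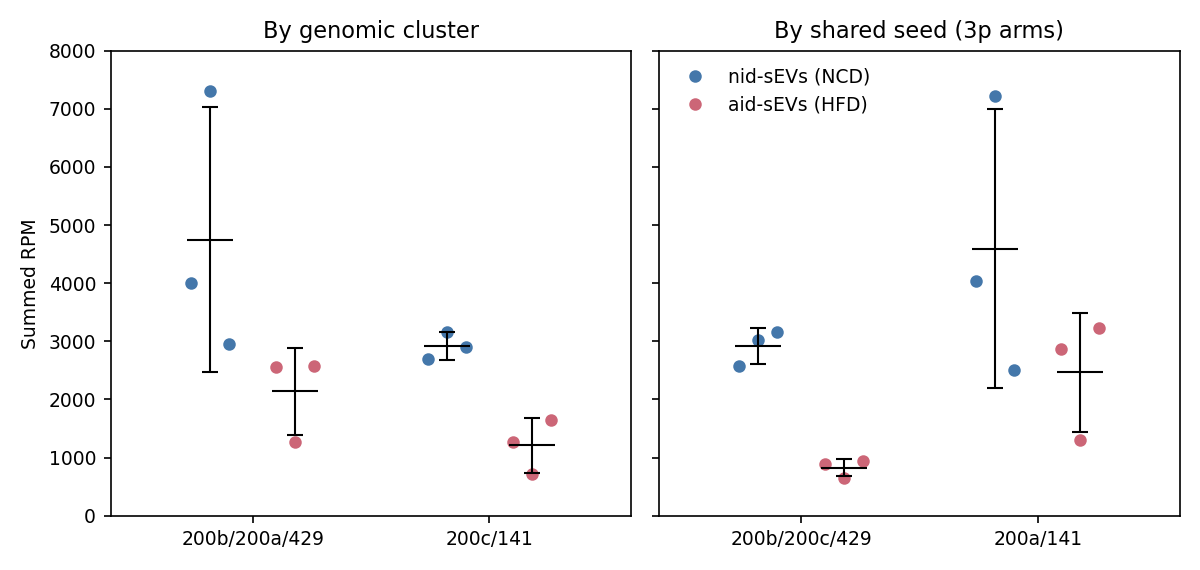
Summed RPM per library, by genomic cluster on the left and by shared seed on the right, with the mean and SD of 3 libraries in black. On this RPM scale both clusters and the AAUACUG group were lower in each aid-sEV library than in each nid-sEV library, and the AACACUG group overlapped.

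The difference between the seed groups was itself not shown. The ratio of the AAUACUG sum to the AACACUG sum within a library was 0.638, 0.418 and 1.26 in nid-sEVs and 0.312, 0.499 and 0.291 in aid-sEVs, and aid-sEV replicate 2 lay above nid-sEV replicate 2. Ratios of single members within a library were compared by two-sided exact permutation tests, in which 3 libraries against 3 cannot go below p = 0.10. miR-200c-3p relative to miR-141-3p, its neighbour on chromosome 6, was at 1.29, 0.962 and 3.20 in nid-sEVs and 0.792, 1.31 and 0.474 in aid-sEVs (exact p = 0.30, adjusted over 4 ratios 0.60). miR-200b-3p relative to miR-200a-3p, its neighbour on chromosome 4, was at 0.316, 0.155 and 0.359 in nid-sEVs and 0.131, 0.201 and 0.128 in aid-sEVs (exact p = 0.20, adjusted 0.60). Relative to miR-429-3p, miR-200b-3p had an exact p of 0.80. miR-200b-3p relative to miR-200c-3p, the pair of like seed on separate chromosomes, was at 0.507, 0.50 and 0.508 in aid-sEVs and at 0.597, 0.559 and 0.295 in nid-sEVs (exact p = 1). That ratio hardly varied across the aid-sEV libraries.

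**Figure D4:**
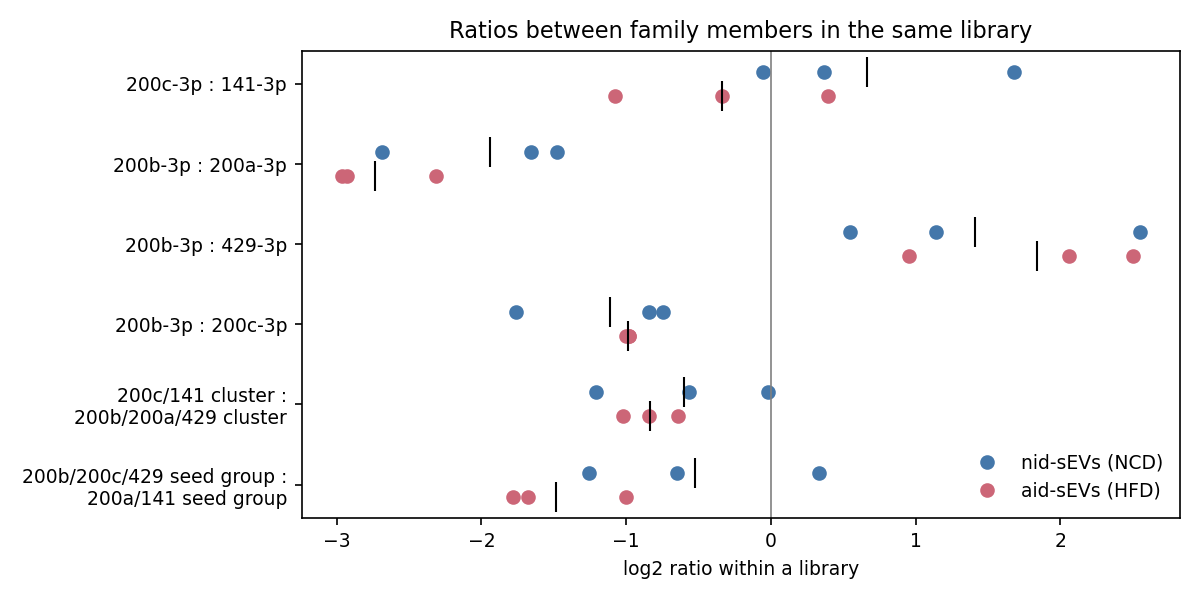
Log2 ratios between family members, clusters and seed groups within each library, with points for libraries and black ticks for group means. nid-sEVs and aid-sEVs overlap in all 6 ratios. The 3 aid-sEV points of miR-200b-3p to miR-200c-3p nearly coincide, more closely than counting error can resolve.

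Counted reads were nearly equal in 1 pair of libraries, nid-sEV replicate 1 with 129152 reads and aid-sEV replicate 3 with 122266. miR-200c-3p had 196 and 65 reads there and miR-200b-3p 117 and 33, levels that were 2.85-fold and 3.36-fold lower in the aid-sEV library. miR-429-3p had 20 and 17 reads, miR-200a-3p 370 and 258, and miR-141-3p 152 and 137. Levels of these 3 were 1.11-fold, 1.36-fold and 1.05-fold lower. The libraries differed in their unnamed share, 33.5% and 9.23%, and relative to miRBase-named reads alone the 5 arms were 3.89-fold, 4.58-fold, 1.52-fold, 1.85-fold and 1.43-fold lower. The pair compares single libraries and has no replicate check.

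Other miRNAs known from epithelia were mixed. Of a list of 12 (miR-203, miR-205, miR-31, miR-182, miR-183, miR-96, miR-192, miR-194 and miR-215), 9 were among the entries, and 3 of these were called higher, where 15.6% of all entries were called higher, and 0 lower by limma. miR-192-5p, abundant in gut and liver epithelium, was one of the 3, at 1208, 1964 and 416 RPM in nid-sEVs and 4982, 6038 and 5864 RPM in aid-sEVs, a log2 difference of 2.49 (SE 0.61, limma adjusted p = 0.039). The remaining 2 were miR-182-5p and miR-183-5p. Of the 6 listed members that were not called, 4 had a lower mean in aid-sEVs, and all 6 had overlapping groups. miR-203-3p and miR-205-5p, known from skin-type epithelia, had means of 207 and 58.4 RPM in nid-sEVs and 68.0 and 6.99 RPM in aid-sEVs. miR-31-5p and miR-215-5p had means of 22.9 and 133 RPM in nid-sEVs and 7.60 and 32.8 RPM in aid-sEVs. The sum of the list was mostly miR-182-5p and miR-183-5p in aid-sEVs, with means of 31112 and 18632 RPM out of 59472 RPM.

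Of 6 miRNAs known from endocrine islet cells, limma called miR-7b-5p higher and miR-148a-3p lower, beside 15.6% and 1.81% of all entries. miR-148a-3p, which is abundant in many tissues, had 118326, 144828 and 93145 RPM in nid-sEVs and 40014, 20886 and 56336 RPM in aid-sEVs (log2 difference -1.69, SE 0.41, limma adjusted p = 0.037). It is not among the 4 stricter endocrine markers, of which 0 were called lower. miR-375-3p had 56585, 150356 and 346480 RPM in nid-sEVs and 163590, 155673 and 136424 RPM in aid-sEVs, so its nid-sEV range enclosed the aid-sEV libraries. Per 1000 reads of miR-375-3p, miR-200c-3p had 26.8, 10.3 and 6.40 reads in nid-sEVs and 3.41, 2.59 and 3.90 in aid-sEVs, and these groups did not overlap. By the same measure miR-200b-3p had 16.0, 5.77 and 1.88 reads in nid-sEVs and 1.73, 1.29 and 1.98 in aid-sEVs. There nid-sEV replicate 3 fell within the aid-sEV range. The measure moves with miR-375-3p itself, which was lowest in nid-sEV replicate 1.

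Markers of other cells that an islet preparation can carry also differed between the groups. All 10 blood cell and liver markers were listed, 3 were called lower by limma, beside 1.81% of all entries, and their sum was 5086 to 14843 RPM in nid-sEVs and 777 to 1614 RPM in aid-sEVs. Of the 9 mesenchymal markers 8 were listed, and 0 were called by limma. Of these, 3 lay lower in each aid-sEV library than in each nid-sEV library, an order that 7.52% of all entries and 20.1% of those detected in all libraries had. The mesenchymal sum was 5937 to 26728 RPM in nid-sEVs and 4622 to 12116 RPM in aid-sEVs. The 5 listed of 6 acinar markers summed to 2533 to 9067 RPM and 698 to 3420 RPM, and both endothelial arms of miR-126a to 989 to 3717 RPM and 679 to 1325 RPM. No acinar or endothelial marker was called in either direction by limma. That no listed marker was at 0 in all libraries was fixed in advance, since every entry has reads in at least 2. The sums of these 4 lists were highest in nid-sEV replicate 1, as was miR-200b-3p, while miR-200c-3p was highest in nid-sEV replicate 3 and the family sum in nid-sEV replicate 2. The part of these cells in the level of the miR-200 family was not tested.

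**Figure D5:**
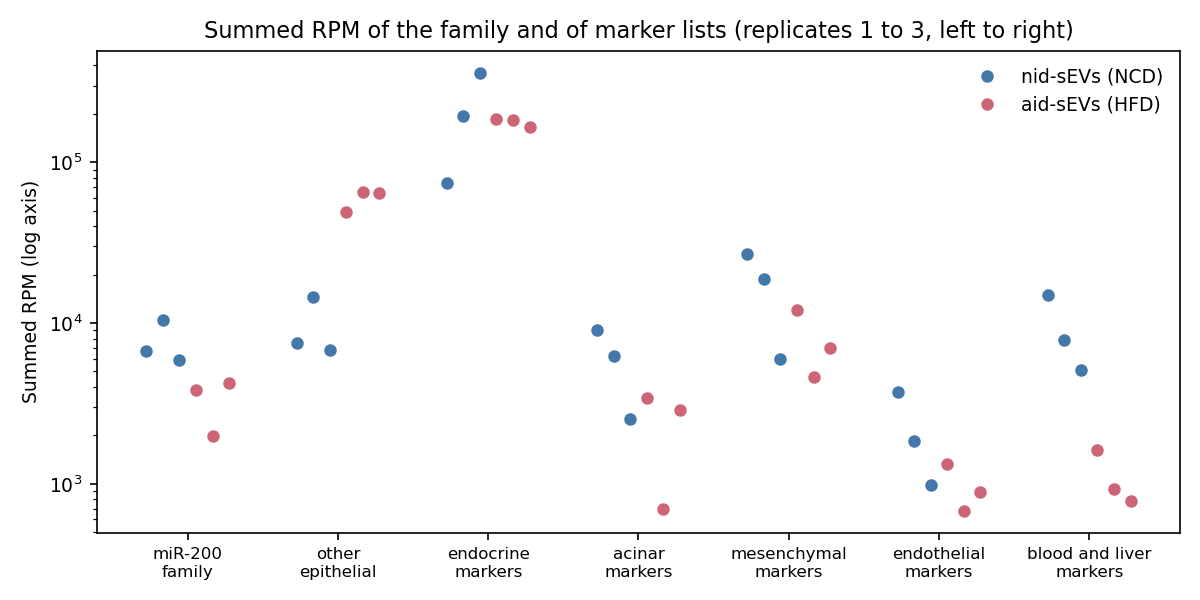
Summed RPM per library on a log axis for the miR-200 family and 6 lists of marker miRNAs. The family and the blood cell and liver markers were lower in each aid-sEV library than in each nid-sEV library, the sum of the other epithelial list, mostly miR-182-5p and miR-183-5p in aid-sEVs, was higher in each, and the remaining lists overlapped.

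Over the 6 libraries, the profile of miR-200b-3p on the log2(RPM + 1) scale was most like that of miR-122-5p, with a Pearson r of 0.96 among 151 named entries outside the family with a read in every library and a mean of at least 100 RPM. The next were miR-148a-3p (r = 0.95), miR-486a-5p (0.95), miR-100-5p (0.93) and miR-10a-5p (0.92). All 5 were lower in each aid-sEV library than in each nid-sEV library. miR-200b-3p has this order itself, so choosing entries by likeness to it favours the same order. This order of libraries was found for 3 of the 7 family arms and 7.52% of all entries, and among those detected in all libraries for 3 of 6 arms and 20.1% of entries. Within the family, r with miR-200b-3p was 0.94 for miR-200c-3p, 0.81 for miR-429-3p, 0.75 for miR-200a-3p and 0.69 for miR-141-3p. These values describe 6 points in 2 groups that share libraries and depth.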

How the data were processed

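Vesicle RNA was extracted with a miRNeasy kit and sequenced on an Illumina NovaSeq by a company. The authors deposited 1 table of 718 entries with an RPM for each of 6 libraries, and per the labels fastp 0.23.0, HISAT2 2.2.1 and GRCm38 were used, with no role stated. The miRNA reference and the counting are not given in the sources used here. Deposited columns with the authors' log2 fold change, log2 abundance, p-value and false discovery rate were not used. The table lists no entry with reads in fewer than 2 libraries.

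Each RPM was divided by the smallest value above 0 of its library, and 100% of values came out whole within 0.01 reads. Library totals, the counted reads, are 1000000 divided by that step. Groups were compared with limma 3.58.1 (lmFit, eBayes with trend) in R 4.3.3 on log2(RPM + 1), without a filter, with Benjamini-Hochberg adjustment over all entries. This scale understates changes of low miRNAs. The count tests of edgeR 4.0.16 and DESeq2 1.42.0 on recovered reads were alternatives. Intervals and floors cover counting error only. Samples were grouped by their titles. The paper gives n = 3 per group here and names at least 3 biological replicates for its experiments in general. Whether each library came from a separate culture or separate mice is not stated, so p-values measure only the spread between these libraries. The named miRNAs are all listed arms of the family, members of the marker lists and the 5 entries most like miR-200b-3p. Members and lists were chosen with earlier results of these data known. The script was tested on simulated data.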

Additional observations from a re-analysis of the deposited data

How the results depend on the processing

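In 19 alternatives, 2 or 3 family arms were called lower in 8, 1 in 4 and 0 in 7, and none higher. Of the 7 arms, 6 stayed lower in every alternative that tested them. miR-200a-5p ranged from -2.63 to 1.08 (log2) when single libraries were left out, and turned to 0.26, 0.50 and 1.08 without nid-sEV replicate 1, nid-sEV replicate 2 and aid-sEV replicate 2. Family arms called lower numbered 1 with a pseudocount of 10 and with centring, beside 9 and 10 of all 718 entries. They numbered 0 with TMM factors, with edgeR's quasi-likelihood test without a filter and with its exact test, beside 3, 7 and 15 entries. In these settings 2, 1 and 1 arms were lower at an unadjusted p under 0.05. With TMM factors the share of all entries at that p was not counted. Leaving out single libraries gave 0 to 2.

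Entries called higher were 112 in the comparison as reported, 62 with a pseudocount of 10, 69 with a mean RPM of at least 10, 46 after thinning to the smallest library, 48 and 56 with edgeR's quasi-likelihood test with and without a filter, 61 with its exact test, 65 with DESeq2, and 23 among entries detected in all libraries, an alternative chosen after seeing the data. Entries called lower were 13 as reported, 8 with a pseudocount of 0.1, 3 with TMM factors, 5 after thinning, 21 and 7 with the quasi-likelihood test with and without a filter, and 50 with DESeq2. Leaving out single libraries gave 33 to 150 higher and 1 to 26 lower. The causes were not tested.

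Whether same-numbered libraries were prepared together is not stated. Deviations of same-numbered libraries correlated at -0.054, 0.13 and -0.11, and those of differently numbered ones at -0.20 to 0.21. With 3 libraries per group these values cannot decide it. With the replicate number as a block, limma called 0 entries higher, 0 lower and 0 family arms, with 20.6% of entries higher, 5.43% lower and 2 arms lower at an unadjusted p under 0.05. The cluster and seed sums and the ratio of the clusters were run in 8 alternatives only: 3p arms alone, thinning and leaving out single libraries. They were not run with the block, TMM factors or centring. In these 8 the sums kept their direction. The ratio (log2 difference -0.24) stayed within 1 SD but turned to 0.051 without nid-sEV replicate 3. Family members with under 20 reads in a library are limited by depth.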
